A study of Mus musculus with 147 samples.

Results

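Nephrin (Nphs1), membrane-associated guanylate kinase MAGI-2 (Magi2), podocalyxin (Podxl), the receptor phosphatase GLEPP1 (Ptpro), the chloride channel-related protein Clic5, synaptopodin (Synpo), phospholipase C epsilon (Plce1) and the transcription factor Wt1 were followed in single YFP-positive kidney cells of the renin lineage. These 8 genes were taken by symbol from the count tables, and all 8 were among the 35438 genes listed. Cells were sorted from the kidney cortex of adult C57BL/6 mice, either WT (Ren1c+/+ Ren1c-YFP) or Ren1c-KO (Ren1c-/- Ren1c-YFP). Every mouse carried Ren1c-YFP, a reporter under Ren1c control. A cell was thus collected for YFP fluorescence and not for renin itself. The Ren1c-KO mice had received subcutaneous saline after birth. The data hold 51 WT renin cells in 1 library and 96 Renin-null cells in the libraries YFP1 and YFP2, with 48 cells in each. The labels give each library of reads as 1 cell, captured in a well of a Fluidigm C1 circuit, and wells are numbered here within each genotype. Cells of several mice were combined and no label names a mouse or capture for a well, so each genotype was treated as 1 sample. Between WT and Renin-null cells, genotype, capture and library cannot be told apart. YFP1 and YFP2 share the genotype, and between them mouse, capture and library cannot be told apart.

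Podocytes are the epithelial cells that wrap the glomerular capillaries. Their interlocking foot processes are joined by the slit diaphragm, a junction built around nephrin, and are held in shape by an actin cytoskeleton. Wt1 keeps the podocyte gene program active in the adult kidney. Renin cells are mural cells of the afferent arteriole at the glomerular entrance and share smooth muscle and pericyte genes with their neighbours, whereas slit diaphragm genes are known as podocyte products.

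Counts per well had a median of 1525972 in WT (range 26401 to 17124854), 2474268 in YFP1 (3628 to 14505243) and 4989996 in YFP2 (9102 to 11069338). Genes detected per well had medians of 3528, 4478.5 and 5546.5, and the median share of mitochondrially encoded counts was 60.4%, 12.9% and 12.4%, in the same order. Ren1 checked the labels. It made up 96023 CPM (counts scaled to a total of 1000000) of the summed WT counts and was held in 51 of 51 WT wells, against 0.135 CPM and 0 of 96 Renin-null wells. The pericyte gene Rgs5 was held in 51 WT, 46 YFP1 and 48 YFP2 wells. Some of these wells held it at a low level, among them Renin-null wells 7 (20.8 CPM), 19 (26.6 CPM) and 72 (38.3 CPM). They held 1, 2 and 2 of the 12 mural genes listed below. The median was 6285 CPM over the YFP2 wells other than 59, 75 and 87. Among the Renin-null wells, 4 pairs were near-identical over all genes, and 3 of these pairs cross YFP1 and YFP2. Wells 48 and 96, the pair within YFP2, had 10121 and 11146 detected genes and each held all 12 mural genes, all 9 proximal tubule markers and 4 of 5 collecting duct markers of the lists described below. Whether the wells of a pair are separate cells, and whether each holds 1 cell, was not tested. A gene counts as held by a well at 10 CPM or more and 10 counts or more.

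The promoters of Nphs1 and Magi2, members whose Renin-null counts lay mostly in wells 59, 75 and 87, are shown with that of Plce1, which had 6.19% of its Renin-null counts there. The sequences are from RefSeq on GRCm38.p6 and run from 250 bases before the start to 50 after it. The promoter set used here held records for 5 of the 8 genes. Capitals mark GNGTGGGNG or GNGGGGGNG, letters of the kind that Wt1 and Egr proteins are known to bind, searched on both strands.
Nphs1, chr7:30459808-30460107, plus strand: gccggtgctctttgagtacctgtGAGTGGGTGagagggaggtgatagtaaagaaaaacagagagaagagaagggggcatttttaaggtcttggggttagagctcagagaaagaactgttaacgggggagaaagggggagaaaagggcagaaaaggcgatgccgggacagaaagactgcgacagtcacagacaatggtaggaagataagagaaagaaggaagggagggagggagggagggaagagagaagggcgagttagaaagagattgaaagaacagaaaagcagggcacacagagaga
Magi2, chr5:19226796-19227095, plus strand: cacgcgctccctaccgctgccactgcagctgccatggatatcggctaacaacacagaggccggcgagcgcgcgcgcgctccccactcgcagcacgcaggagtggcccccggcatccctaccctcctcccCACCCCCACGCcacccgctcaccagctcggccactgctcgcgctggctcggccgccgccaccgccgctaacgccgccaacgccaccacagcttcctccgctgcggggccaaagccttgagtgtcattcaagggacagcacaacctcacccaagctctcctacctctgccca
Plce1, chr19:38523947-38524246, plus strand: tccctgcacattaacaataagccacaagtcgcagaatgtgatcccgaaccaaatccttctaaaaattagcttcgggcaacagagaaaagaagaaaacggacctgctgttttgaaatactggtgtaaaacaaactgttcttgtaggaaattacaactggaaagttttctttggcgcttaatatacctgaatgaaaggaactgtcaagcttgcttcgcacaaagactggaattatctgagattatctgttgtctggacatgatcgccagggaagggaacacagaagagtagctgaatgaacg
The Nphs1 promoter held 1 match, GAGTGGGTG, which began 227 bases before the start. The set held 2 Magi2 records. The one shown held 2 overlapping matches on the minus strand, whose left ends lay 119 and 121 bases before the start, and the other, chr5:19907268-19907567, held 1 match. The Plce1 and Clic5 promoters had no match. The Plce1 and Nphs1 records lie inside genes that begin at chr19:38481109 and chr7:30458315. The Magi2 record shown spans the gene start at chr5:19227036. Other starts of Plce1 and Nphs1 were not searched. The Ptpro promoter had 4 overlapping matches in a run of G. Of 32851 promoters, 14.3% held GNGTGGGNG and 18.8% held GNGGGGGNG, so these matches describe the letters and no binding was measured.

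Summed over wells, 7 of the 8 podocyte genes were higher in Renin-null cells than in WT renin cells, with a median log2 ratio of 5.88, and Plce1 was lower. The sums came to 94143 counts (476 CPM) in WT, 105132 counts (579 CPM) in YFP1 and 216692 counts (997 CPM) in YFP2. At 2-fold or more, 7 genes were higher and 0 were lower, where 52.4% of all 18720 genes with a ratio were at least 2-fold higher and 18.5% at least 2-fold lower. The call of Synpo, at a log2 ratio of 1.01, lay at the threshold and was lost with TMM or size factors, with a filter on wells, without mitochondrial counts and with near-identical wells counted once, each of which left 6 higher genes. With TMM or size factors Plce1 was at least 2-fold lower (-1.33, -1.47). By the difference of mean log2(CPM + 1), Ptpro and Synpo were the 2 genes at least 2-fold higher. For YFP1 over WT, 3 genes (Magi2, Podxl and Ptpro) were at least 2-fold higher, the median was 0.47, and Nphs1 and Wt1 lay below 0. Without the Renin-null wells 59, 75 and 87, described below, the same 3 genes were at least 2-fold higher over WT and the median was 0.79. The median log2 ratio over all genes was 1.17. Podxl was at 0 counts in WT and entered at a floor of 3 counts over the group, so that its ratio is a lower bound. Between the Renin-null libraries, YFP2 over YFP1, 6 genes were at least 2-fold higher and 1 was lower, with a median log2 ratio of 2.98. By the difference of mean log2(CPM + 1), Podxl and Synpo were the 2 genes at least 2-fold higher there, and 0 were lower. On the sums without wells 59, 75 and 87, Podxl was the 1 gene at least 2-fold higher, 3 (Magi2, Ptpro and Plce1) were lower, and the median was 0.38. Over all 17923 genes with that ratio, 38.3% were at least 2-fold higher, 28% were at least 2-fold lower, and the median was 0.32. There is no test of these differences, since wells are not replicates of a genotype, and the 95% intervals below cover counting error only.

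Nphs1 (ENSMUSG00000006649, chr7:30458315-30487223) encodes nephrin, the adhesion protein at the core of the slit diaphragm. It gave 502 counts in WT (2.54 CPM, 95% interval 2.32 to 2.77), 368 in YFP1 (2.03 CPM, 1.83 to 2.25) and 56274 in YFP2 (259 CPM, 257 to 261). Well by well, the lowest and median values were 0 CPM in WT and YFP1, with maxima of 26.8 and 21.7 CPM, and the YFP2 wells ran from 0 through a median of 0.0783 to 4399.8 CPM. The range of most wells was thus shared by the 3 libraries and a few YFP2 wells stood above it. Nphs1 was held in 3 WT, 3 YFP1 and 4 YFP2 wells, and in 3 further YFP2 wells it passed 10 CPM on fewer than 10 counts. The log2 ratio to WT was -0.32 (-0.52 to -0.13) for YFP1 and 6.67 (6.55 to 6.80) for YFP2, and the ratio of YFP2 to YFP1 was 7.00 (6.85 to 7.15).

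Magi2 (ENSMUSG00000040003, chr5:19227036-20704792) encodes a scaffold that binds nephrin beneath the slit diaphragm. It gave 79 counts in WT (0.399 CPM), 1498 in YFP1 (8.26 CPM) and 14942 in YFP2 (68.7 CPM). The lowest and median well was at 0 CPM in each library, and the highest was at 8.61 CPM in WT, 182 CPM in YFP1 and 1022 CPM in YFP2. No WT well held it, while 2 YFP1 wells and 4 YFP2 wells did. Its log2 ratio to WT was 4.37 (4.04 to 4.72) in YFP1 and 7.43 (7.11 to 7.77) in YFP2.

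Podxl (ENSMUSG00000025608, chr6:31519488-31563981, minus strand) encodes podocalyxin, the charged surface sialomucin of podocytes, which vascular endothelium also makes. It had 0 counts in 51 WT wells, 19 in YFP1 (0.105 CPM, 0.0631 to 0.164) and 37605 in YFP2 (173 CPM, 171 to 175). The median well was at 0 CPM in every library and the highest YFP2 well at 2792 CPM. It was held in 4 YFP2 wells and in no other. Against the floor of 3 counts over the WT wells, which makes the ratio a lower bound, YFP2 was 11411.5-fold higher. The 95% counting interval of that bound reached down to 9280.03-fold. Its log2 ratio to YFP1 was 10.69 (10.05 to 11.42).

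Ptpro (ENSMUSG00000030223, chr6:137252319-137463233) encodes a receptor phosphatase of the foot process membrane. It gave 89 counts in WT (0.450 CPM), 3180 in YFP1 (17.5 CPM) and 7930 in YFP2 (36.5 CPM), and was held in 1, 6 and 7 wells. The median well was at 0 CPM in WT and YFP1 and at 0.0655 CPM in YFP2, with the highest wells at 11.4, 734 and 515 CPM. The log2 ratio of YFP2 to YFP1 was 1.06 (1.00 to 1.12). That ratio was 0.07 with the highest well of each library left out and changed sign to -0.46 without Renin-null well 59. The highest YFP1 values came from wells 41 and 42.

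Clic5 (ENSMUSG00000023959, chr17:44188584-44280172) encodes a protein that links podocalyxin and ezrin to actin in podocyte foot processes. It gave 1312 counts in WT (6.63 CPM), 1507 in YFP1 (8.31 CPM) and 13500 in YFP2 (62.1 CPM). In WT, 97.7% of the counts came from well 5, and in YFP1 89.5% came from well 23. The highest wells were at 114, 150 and 928 CPM and the medians at 0, 0 and 0.11 CPM. Clic5 was held in 1 WT, 3 YFP1 and 6 YFP2 wells, and its log2 ratio to WT was 0.33 (0.22 to 0.43) in YFP1 and 3.23 (3.15 to 3.31) in YFP2.

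Wt1 (ENSMUSG00000016458, chr2:105126529-105173616) gave 69 counts in WT (0.349 CPM), 47 in YFP1 (0.259 CPM) and 19687 in YFP2 (90.6 CPM). The lowest and median wells were at 0 CPM in every library, and the highest at 37.9, 1.29 and 1751 CPM. The WT value of 37.9 CPM came from well 15, which had 26401 counts in all, and 89.9% of the WT counts came from well 5, below 10 CPM. No WT or YFP1 well held Wt1, and 3 YFP2 wells did. The ratio of YFP1 to WT, -0.43 on the log2 scale, had an interval from -0.995 to 0.13, and the ratio of YFP2 to WT was 8.02 (7.68 to 8.38).

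Synpo and Plce1 did not share this distribution. Synpo encodes an actin-associated protein of foot processes, and was held in 8 WT, 19 YFP1 and 23 YFP2 wells. It summed to 16471 counts in WT (83.2 CPM), 23258 in YFP1 (128 CPM) and 43541 in YFP2 (200.3 CPM), with median wells at 0.269, 1.12 and 22.1 CPM and highest wells at 662, 2303 and 1855 CPM. The libraries overlapped up to the WT maximum, above which only Renin-null wells lay. The log2 ratio of Renin-null over WT was 1.01 (0.98 to 1.03), below the median of all genes.

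Plce1 (ENSMUSG00000024998, chr19:38481109-38785030) encodes a phospholipase needed for normal podocyte development. It was held in 11 WT, 9 YFP1 and 11 YFP2 wells and was the only member lower in Renin-null cells, with a log2 ratio of -0.63 (-0.64 to -0.62). Its sums were 75621 counts in WT (382 CPM), 75255 in YFP1 (415 CPM) and 23213 in YFP2 (107 CPM), with median wells at 1.83, 0.685 and 0.732 CPM. The highest wells were at 3791, 3556 and 715 CPM. WT well 6 held 56.2% of the WT counts, and Renin-null well 1 held 68.5% of the YFP1 counts. YFP2 had the lowest maximum of the 3 libraries for this gene, and the highest for Nphs1 and Wt1.

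**Figure D1:**
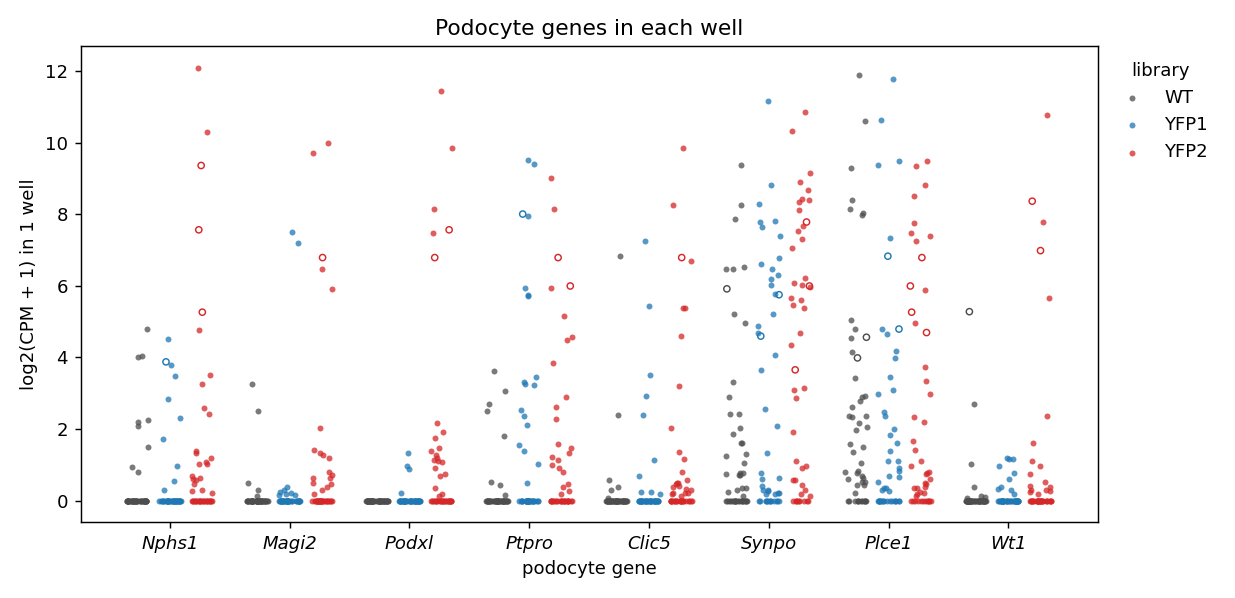
Each point is 1 well, with log2(CPM + 1) of a podocyte gene on the vertical axis, for 51 WT, 48 YFP1 and 48 YFP2 wells; open points are wells at 10 CPM or more with fewer than 10 counts. For Nphs1, Magi2, Podxl, Clic5 and Wt1 most wells sit at or near 0 and the highest are YFP2 wells, while Synpo and Plce1 spread upward in all 3 libraries.

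**Figure D2:**
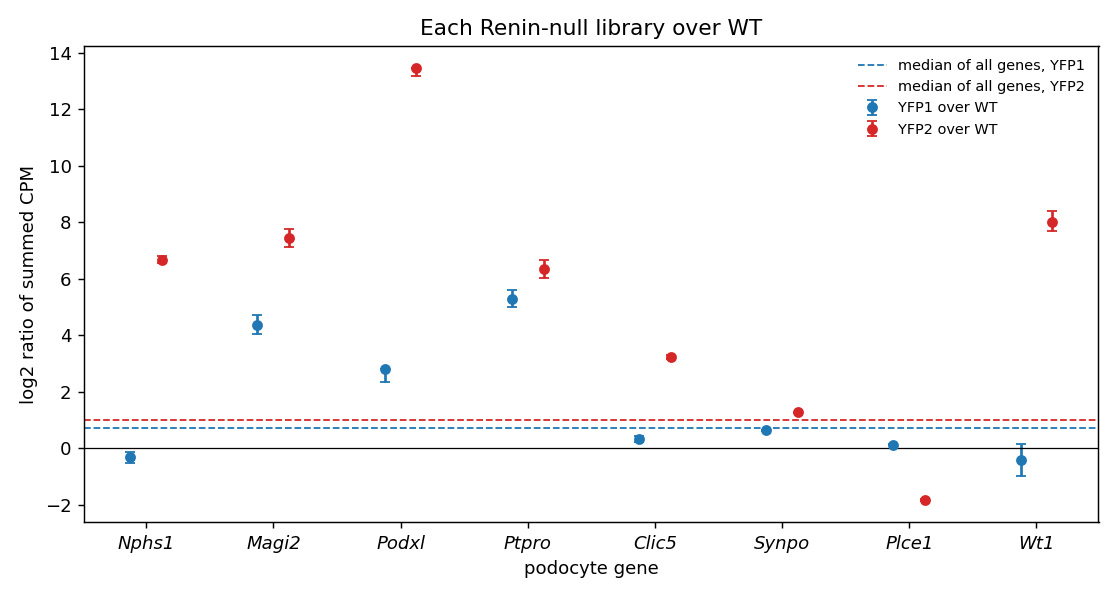
Log2 ratios of summed CPM for YFP1 over WT and YFP2 over WT, with 95% counting intervals and dashed lines at the median of all genes (0.71 and 0.98); the ratios of Podxl are lower bounds. Nphs1 and Wt1 lie below 0 in YFP1 and at 6.67 and 8.02 in YFP2, and Plce1 lies at 0.12 and -1.84.

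At least 3 of the 8 genes were held in 1 of 51 WT wells (1.96%, exact Clopper-Pearson interval 0.0496% to 10.4%), 2 of 48 YFP1 wells (4.17%, 0.509% to 14.3%) and 7 of 48 YFP2 wells (14.6%, 6.07% to 27.8%). The intervals overlap. With near-identical wells counted once, the Renin-null share was 9 of 92 (9.78%) against 9 of 96 (9.38%), and the median log2 ratio over WT was 5.94 against 5.88. Without all 8 wells of the pairs they were 9 of 88 (10.2%) and 6.03. With any count taken as held, 3 or more genes were seen in 14 of 51 WT, 19 of 48 YFP1 and 31 of 48 YFP2 wells, and after each well was thinned to 62978 counts in 1 of 49 (2.04%), 2 of 40 (5%) and 9 of 43 (20.9%). At least 1 gene was held in 18 WT, 28 YFP1 and 30 YFP2 wells. At least 2 were held in 5 WT (9.80%), 12 YFP1 (25%) and 11 YFP2 (22.9%) wells, so at that setting YFP2 was not above YFP1. The wells with 4 or more were 4 YFP2 wells, where 0 of 51 WT wells allows a share of up to 6.98% and 0 of 48 YFP1 wells up to 7.40%. With Synpo and Plce1 left out, at least 2 of the other 6 genes were held in 0 WT, 2 YFP1 and 7 YFP2 wells.

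Of the 96 Renin-null wells, 3 held 7 or 8 of the genes, and they carried 98.4% of Nphs1, 99.4% of Wt1, 96.2% of Podxl, 90.3% of Magi2, 70.8% of Clic5 and 61.8% of Ptpro counts of that genotype. They carried 20.6% of Synpo and 6.19% of Plce1 counts. All 3 were YFP2 wells. Without the 3 wells, the median log2 ratio of the 8 genes over WT fell to 0.79, and without well 59 alone to 3.62. Without the 3 wells, the log2 ratios of Nphs1 and Wt1 over WT were -0.045 and -0.075.

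**Figure D3:**
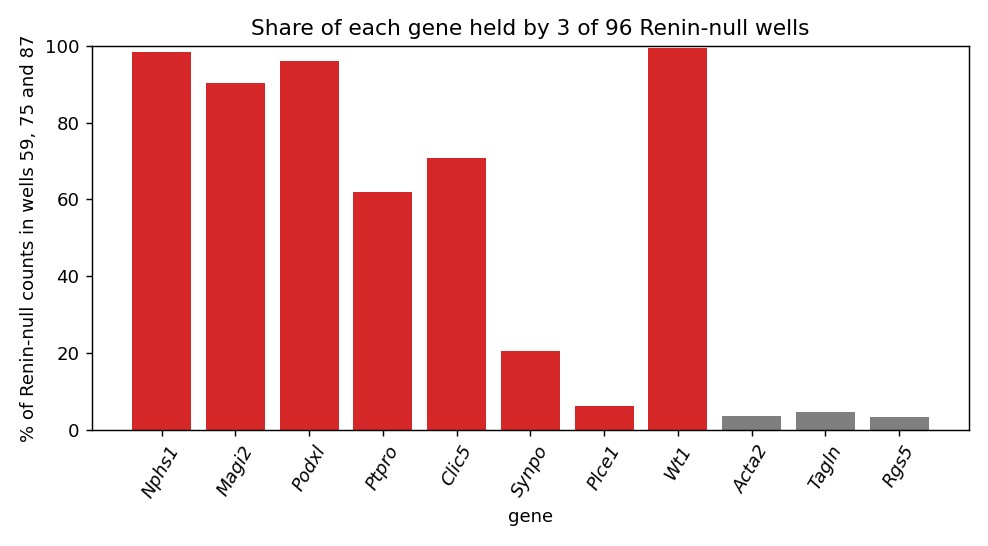
Bars give the percentage of all Renin-null counts of a gene that came from wells 59, 75 and 87, out of 96 wells, for the 8 podocyte genes and 3 mural genes. Wt1 and Nphs1 reach 99.4% and 98.4%, Plce1 6.19%, and Acta2, Tagln and Rgs5 stay under 5%.

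Renin-null well 59 held all 8 genes in 10261168 counts and 8168 detected genes. Nphs1 reached 4399.8 CPM, Podxl 2792, Wt1 1751, Synpo 1286, Clic5 928, Magi2 848, Ptpro 515 and Plce1 454 CPM. Of 20 further podocyte genes, 15 were held. Most mural genes were low there, with 5 of 12 held and Rgs5 at 23.8 CPM against a median of 6285 CPM over the YFP2 wells outside these 3. Mylk was at 198 CPM, against 378 CPM, and Pdgfrb, at 22.7 CPM, lay above its median of 2.14 CPM. Acta2 was at 11.6 CPM, against 1628 CPM, and the renin cell gene Akr1b7 had 6 counts (0.585 CPM), against 571 CPM. Mural genes together made 0.0282% of its counts, and the 8 podocyte genes 1.30%. Endothelial markers were held at 0 of 10.

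Well 75 held 7 genes together with 9 of 12 mural genes. Nphs1 was at 1253 CPM, Podxl at 285, Plce1 at 151, Clic5 at 103, Magi2 at 59.4, Wt1 at 50.1 and Synpo at 24.8 CPM, while Ptpro was at 1.30 CPM. The same well had Rgs5 at 18049 CPM, Tagln at 10797 CPM, Acta2 at 4872 CPM and Akr1b7 at 207 CPM. Well 87 also held 7 genes and 9 mural genes, with Magi2 at 1022 CPM, Podxl at 928, Ptpro at 285, Wt1 at 221, Synpo at 61.3, Clic5 at 40.5 and Plce1 at 30.0 CPM. Its missing member was Nphs1, at 7 counts (1.27 CPM). Rgs5 was at 6618 CPM, Acta2 at 3407 CPM and Akr1b7 at 209 CPM. These wells therefore held podocyte and mural transcripts side by side. Mural genes made 3.74% of the counts of well 75 and 1.53% of those of well 87. In well 59, which held 5 of the 12, they made 0.0282%.

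Endothelial markers were held at 0 of 10 in well 75 and at 2 of 10 in well 87, Emcn at 1623 CPM and Ehd3 at 373 CPM. Well 83 held 4 members. Synpo was at 342 CPM, Clic5 at 304, Podxl at 178 and Ptpro at 13.5 CPM, while Nphs1 was at 1.51 CPM. It held 9 of 10 endothelial markers and 7 of 12 mural genes, and 9787 genes were detected. Wells with exactly 3 members were WT well 33, YFP1 wells 17 and 30 and YFP2 wells 58, 67 and 89. In WT well 33 the 3 were Plce1 at 281 CPM, Synpo at 88.1 CPM and Nphs1 at 15.2 CPM. Well 17 had the highest Synpo value of all wells, 2303 CPM, and well 67 had 11410 detected genes.

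**Figure D4:**
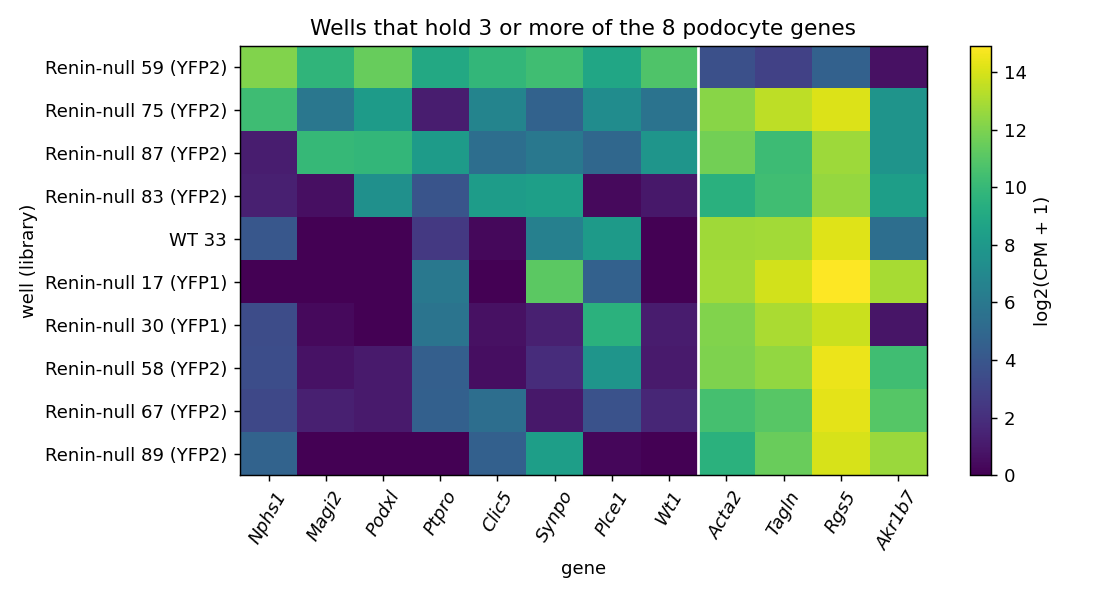
Colour gives log2(CPM + 1) of the 8 podocyte genes, mural genes (Acta2, Tagln, Rgs5) and Akr1b7 in the 10 wells that held 3 or more of the 8. Well 59 is high for every podocyte gene and low for mural genes and Akr1b7, and wells 75 and 87 are high for most of both groups.

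Outside wells 59, 75 and 87, no well held Wt1, and the highest values of Nphs1, Magi2, Podxl and Clic5 were below their highest in the 3 wells, while those of Ptpro, Synpo and Plce1 were above. Nphs1 was held in 5 of the other 93 Renin-null wells, at 10.1 to 26.1 CPM, below the WT maximum of 26.8 CPM. Magi2 was held in 3 (87.5 to 182 CPM), Podxl in 1 (178 CPM), Clic5 in 6 (10.3 to 304 CPM), Ptpro in 11 (13.5 to 734 CPM) and Wt1 in 0. Synpo was held in 39 (11.5 to 2303 CPM) and Plce1 in 17 (12.4 to 3556 CPM). All 3 of these Magi2 values lay above well 75 (59.4 CPM), and the highest Clic5 value lay above wells 75 and 87. Nphs1 had a count of any size in 9 WT, 10 YFP1 and 24 YFP2 wells, of which 3, 3 and 4 held it. Podxl had one in 0, 4 and 22 wells, of which 4 YFP2 wells held it.

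The index pairs on the libraries are the values that bear on these low counts. YFP1 and YFP2 used the same 48 index pairs. The WT labels spell their second index with another letter, and by number, without that letter, 48 of the 51 WT pairs were also pairs of those libraries. Among the YFP2 wells other than 59, 75 and 87, leaving out 2 wells whose labels give different indices, Nphs1 had a count in 18 of 35 wells that share an index with one of the 3 and in 3 of 8 that share none, with medians of 6.5 and 3 counts where present. Podxl had a count in 15 of 35 and 4 of 8, with medians of 7 and 9 counts. Wt1 had a count in 11 of 35 and 3 of 8. The part of reads crossing between wells in the low counts was not tested.

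The mural list held Acta2, Myh11, Tagln, Cnn1, Mylk, Des, Pdgfrb, Rgs5, Cspg4, Mcam, Notch3 and Lmod1, genes of smooth muscle cells and pericytes. Among Renin-null wells with 3 or more podocyte genes, 8 of 9 held 6 or more mural genes (88.9%, 51.8% to 99.7%), against 58 of 87 wells with fewer (66.7%, 55.7% to 76.4%). The exception was well 59. The wells of several were also deeper, with a median of 7261665 counts against 2972615. In wells with no podocyte gene, 13 of 38 held 6 or more mural genes, at a median of 406739 counts.

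By member, 40 of 42 Renin-null wells with Synpo held 6 or more mural genes, as did 17 of 20 with Plce1, 11 of 13 with Ptpro, 6 of 7 with Nphs1, 5 of 6 with Magi2, 6 of 9 with Clic5, 3 of 4 with Podxl and 2 of 3 with Wt1. Over all Renin-null wells, 66 of 96 (68.8%) did so, and the shares for Clic5 and Wt1 (66.7% each) were near that. In WT, 8 of 8 wells with Synpo and 10 of 11 with Plce1 held 6 or more mural genes, against 24 of all 51 (47.1%). Over wells, the Spearman correlation between the numbers of podocyte and mural genes held was 0.69 in WT (51 wells), 0.62 in YFP1 (48) and 0.48 in YFP2 (48). Each number also rose with the counts of the well, with correlations of 0.48, 0.42 and 0.53 for podocyte genes and 0.53, 0.47 and 0.48 for mural genes, so the points share depth.

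**Figure D5:**
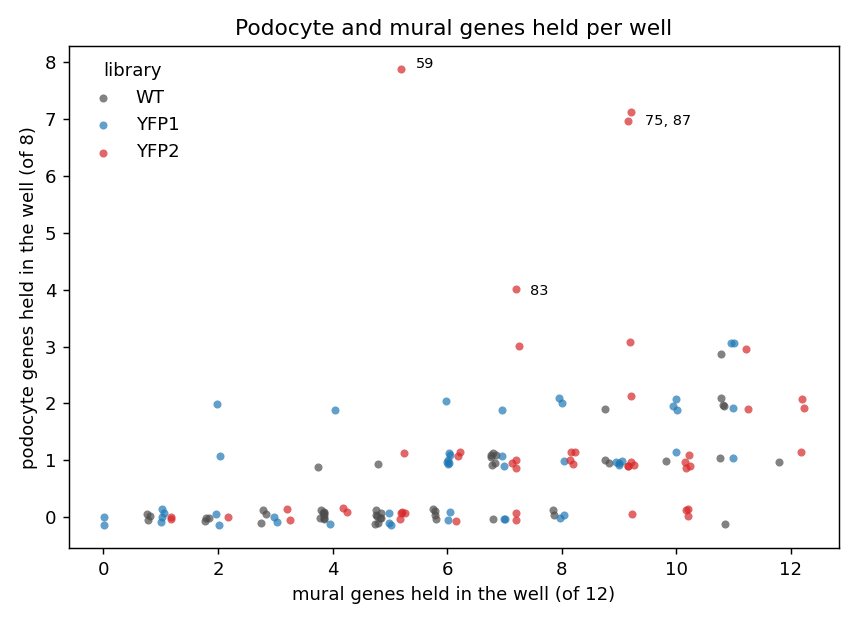
Each point is 1 well, with the number of mural genes held (of 12) on the horizontal axis and of podocyte genes held (of 8) on the vertical axis, slightly displaced so that points do not hide each other; numbers name wells with 4 or more podocyte genes. Well 59 has 8 podocyte and 5 mural genes, wells 75 and 87 have 7 and 9, and most wells have 0 or 1 podocyte gene.

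Pairs of members were held together most often where Synpo or Plce1 was part of the pair. Synpo and Plce1 shared 4 WT, 5 YFP1 and 5 YFP2 wells. Podxl, Wt1, Magi2 and Clic5 were held together pairwise in 3 or 4 YFP2 wells and in 0 WT and 0 YFP1 wells. Nphs1 and Podxl shared 2 wells, since wells 83 and 87 held Podxl without Nphs1.

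Among 20 further genes known from podocytes, 18 were at least 2-fold higher in Renin-null cells and 0 lower, with a median log2 ratio of 5.09, and 15 were higher and 1 lower in YFP2 over YFP1. Over all genes, 52.4% and 38.3% were at least 2-fold higher in these comparisons. Wells 59, 75 and 87 had over 50% of the Renin-null counts of 15 of the 20, with 99.8% of Robo2, 99.8% of Sema3g, 99.1% of Tcf21, 98.0% of Thsd7a, 95.8% of Vegfa and 90.9% of Cdkn1c. The same was so for 2 of 15 podocyte genes that many cell types use, 0 of 12 mural genes and 0 of 10 endothelial markers. The share over all genes was not computed. Of the rest of the 20, Dach1 had 45.3% there, Npnt 44.4%, Kirrel 0.025%, Trpc6 0.022% and Lmx1b 0%. Kirrel and Trpc6 were held in none of the 3 wells. Among the highest ratios were those of Rhpn1 (13.20, from 1 WT count) and Robo2, which had 0 WT counts and gives a lower bound of 12.54 against the floor. Among the lowest were Trpc6 (-0.56), a slit diaphragm calcium channel that was held in 7 WT wells, and Kirrel (1.85). The most widely held were Col4a3 (25 of 96 Renin-null wells), a collagen chain of the glomerular basement membrane, Arhgap24 (16) and Cdkn1c (12). Lmx1b had 1 Renin-null count. Col4a3 was held in 13 YFP1 and 12 YFP2 wells and in 0 WT wells, and the 3 wells had 68.9% of its Renin-null counts.

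Among 15 podocyte genes that many cell types use, 5 were at least 2-fold higher in Renin-null cells and 1 was lower, with a median log2 ratio of 0.00, beside 52.4% and 18.5% of all genes. Magi1 (10.14), Fyn (8.65) and Ezr (3.94) were highest, and Col4a5 (-3.03), Tjp1 (-0.96) and Lamb2 (-0.84) lowest. Vim, Actn4 and Lamb2 were held in 57, 55 and 48 Renin-null wells.

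Markers of several other kidney cell types also differed between the sums, beside the 52.4% of all genes at least 2-fold higher and 18.5% lower. Of the 10 endothelial markers 7 were at least 2-fold higher in Renin-null cells, and the list summed to 186 CPM in WT, led by Ehd3 and with Cdh5, Tek, Plvap and Egfl7 at 0, to 46.4 CPM in YFP1, led by Kdr, and to 534.5 CPM in YFP2, led by Emcn. Most of the YFP2 endothelial counts came from well 83, which was at 10633 CPM. All 9 proximal tubule markers were at least 2-fold higher, with sums of 58.4, 1335 and 763 CPM, and with Slc5a2 at 0 in WT. Most of the YFP1 proximal counts came from well 19, which was at 18126.5 CPM. The sums without these wells were not computed. All 4 parietal epithelial markers were higher, with sums of 31.4, 121 and 94.4 CPM, led by Cd24a, and Cldn1 was at 0 in YFP2. Most parietal counts came from 1 well per library, WT well 43 (310 CPM), YFP1 well 23 (1732 CPM) and YFP2 well 83 (1543 CPM). The parietal sums without them were not computed. Of the 12 mural genes, 1 was higher and 2 were lower, with sums of 24875, 26531 and 29012 CPM, led by Rgs5. The mesangial list, led by Serpine2, summed to 1729, 2127.5 and 3334 CPM. Distal tubule markers, with Pvalb at 0, summed to 0.515, 189 and 43.0 CPM, led by Calb1, Slc12a1 and Slc12a3 in turn. Most of the YFP1 distal counts came from well 23, which was at 3621 CPM, and the sum without it was not computed. Collecting duct markers, led by Fxyd4 and with Scnn1g at 0 in YFP1, summed to 33.2, 7.57 and 149.6 CPM, and fibroblast markers, led by Col1a2 and with Dpt at 0, to 171, 343 and 860 CPM. Most of the YFP2 collecting duct counts came from the near-identical wells 48 and 96, at 2196 and 1611 CPM. Macrophage markers, led by Ptprc and with C1qb and Adgre1 at 0, summed to 0.985, 4.17 and 3.997 CPM. Mesothelial markers, with Upk3b and Lrrn4 at 0, summed to 1.08, 45.8 and 4.54 CPM, led by Krt19 in YFP1 and by Msln in the other libraries. Most of the YFP1 mesothelial counts came from well 23, at 527 CPM. The part of these cell types in the podocyte gene values was not tested.

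The genes whose level over the 96 Renin-null wells was most like the summed level of the 8 podocyte genes, by Pearson correlation of log2(CPM + 1) among 8064 genes, were Ntrk3 (0.54), Mmachc (0.53), Dnajb4 (0.49), Aebp1 (0.48) and Tsc22d1 (0.47). The wells share depth, and the values are weak for counts this sparse. Ntrk3 had 56628 counts in well 59 and was held in 31 wells. Without well 59 the correlations were 0.50, 0.54, 0.47, 0.49 and 0.47 in the same order. The sum can rest on Synpo or Plce1. In well 66 Synpo made 1855 of 1858 CPM, and in well 1 Plce1 made 3556.0 of 3556.3 CPM. Likeness to the 6 members without Synpo and Plce1 is not given.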

How the data were processed

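Per the labels and methods, sorted cells were captured on the Fluidigm C1 System, wells were inspected by microscope for single viable cells, and SMART-Seq v4 cDNA without molecular identifiers was sequenced. The authors trimmed reads with Trimmomatic 0.39, quantified them with Salmon 0.11.2 on GRCm38.p6 and summed them to genes with tximport (lengthScaledTPM), after FastQC 0.11.5. The deposited values are expected counts, not normalized for depth, and the length scaling can change them. They were rounded to whole numbers in each well. All columns were mapped by label, and 0 were left unmapped.

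Counts were summed per genotype and library and scaled to 1000000 (CPM). Where a genotype or library had 0 counts of a gene, 3 counts in total stood in as its floor, and genes with at most 3 counts on both sides got no ratio. Intervals are exact Poisson, exact conditional or Clopper-Pearson at 95% and cover counting error only, since PCR copies are not independent molecules. No test between genotypes was run, since each is 1 sample, and no doublet caller was run. Near-identical wells are pairs with a Pearson correlation of log2(CPM + 1) of at least 0.95. Thinning took each well to 62978 counts, which left out 2 WT and 13 Renin-null wells. The well filter (at least 100000 counts, at least 1000 genes, at most 25% mitochondrial counts over 13 genes) kept 15 WT and 57 Renin-null wells.

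All 8 genes are reported. Of the other podocyte lists, the 3 highest, 3 lowest and 3 most widely held genes were named, and of other marker lists the most abundant gene and those at 0. A few genes chosen in this way are not reported here. The correlated genes had to be held in at least 5 Renin-null wells. The members, lists and motifs were chosen with earlier results of these data known. Nphs1, Magi2 and Plce1 overlap 8 opposite-strand genes in GENCODE M21, of which 3 are in the tables: Rps12-ps4, within Nphs1, with 16 WT and 344 Renin-null counts, and Gm21009 and Gm43680, within Magi2, with 0. The libraries' strandedness is not given in the sources used here. Software was Python 3.11.15, numpy 2.4.6, pandas 2.3.3, matplotlib 3.10.9 and scipy 1.17.1. TMM factors came from edgeR 4.0.16 and size factors from DESeq2 1.42.0 under R 4.3.3, and both scaled the sums in alternatives.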

Additional observations from a re-analysis of the deposited data

Results flagged for a closer look

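Of the 8 genes, 3 lay on opposite sides of WT in the Renin-null libraries. Nphs1 had a log2 ratio to WT of -0.32 in YFP1 and 6.67 in YFP2, Wt1 of -0.43 (interval -0.995 to 0.13, which spans 0) and 8.02, and Plce1 of 0.12 and -1.84. Both libraries were compared with the same WT cells, and the difference between them was not tested, since each is 1 library. For Nphs1 and Wt1, the YFP2 side rested on wells 59, 75 and 87, which carried 98.4% and 99.4% of the Renin-null counts. For Plce1, Renin-null well 1 carried 68.5% of the YFP1 counts and WT well 6 carried 56.2% of the WT counts. The side of YFP1 for Plce1 thus rested on single wells, and its ratio to WT without them was not computed.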

How the results depend on the processing

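The share of WT wells with 3 or more podocyte genes was 27.5% when 1 count sufficed and 0% at 100 CPM, at 4 of 8 genes and at 2 of 6 genes without Synpo and Plce1. The Renin-null share was 52.1% at 1 count, 4.17% at 100 CPM, 24.0% at 2 of 8 and 4.17% at 4 of 8 genes. At 2 of 8 genes the share was 9.80% in WT, 25% in YFP1 and 22.9% in YFP2. The median log2 ratio of Renin-null over WT was 5.26 by mean CPM over wells, 0.62 by the difference of mean log2(CPM + 1), 5.18 with TMM factors, 5.04 with size factors, 6.17 with each gene's highest well left out, 3.62 without well 59, 0.79 without wells 59, 75 and 87, 0.47 for YFP1 and 6.51 for YFP2. TMM and size factors took 0.70 and 0.84 off every gene and brought Synpo over WT to 0.31 and 0.17, below 2-fold, and Plce1 to -1.33 and -1.47. Synpo was also below 2-fold with the well filter (0.53), near-identical wells once (0.97) or all left out (0.91), without mitochondrial counts (0.85), without well 59 (0.73), without the 3 wells (0.77) and in YFP1 (0.62). At least 2-fold higher over WT were 2 genes by the difference of mean log2(CPM + 1), and 3 both without the 3 wells and in YFP1. In YFP2 over YFP1, 2 genes were higher and 0 lower by that difference, and 1 was higher and 3 lower without the 3 wells. For YFP2 over YFP1 the median was 2.78, 0.81, 2.77, 2.74, 3.94, 1.54 and 0.38 under the first 7 settings given for the median over WT, and 3.07 without all near-identical wells. Co-detection with 6 mural genes was 100% at 1 count (other wells 43 of 46), 50% (2 of 4) at 100 CPM (43 of 92) and, with 3 mural genes asked for, 100% (74 of 87). Directions reversed for Nphs1 and Wt1 over WT without the 3 wells (-0.045, -0.075) and in YFP1 (-0.32, -0.43), and Plce1 over WT turned from -0.63 to 0.12 in YFP1. In YFP2 over YFP1, Ptpro was below 2-fold with TMM and size factors (0.85, 0.82) and with the highest well left out (0.07), as was Plce1 in the last (-0.70), and Ptpro reversed by mean CPM (-0.89), by mean log2(CPM + 1) (-0.10), without well 59 (-0.46) and without the 3 wells (-1.68), Magi2 without the 3 wells (-4.05), and Plce1 by mean log2(CPM + 1) (0.40). Leaving out well 59, the 3 wells, all 8 near-identical wells, or Synpo and Plce1 was chosen after seeing the data. With the well filter, 6.67% of WT and 15.8% of Renin-null wells had 3 or more podocyte genes. No paired analysis was possible because the genotypes share no mouse or capture label and no test was run. With 1 sample for each genotype, the counting intervals do not cover the spread between mice.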

Other observations

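Near-identical values were seen in 4 pairs of Renin-null wells, namely wells 45 and 93, 46 and 94, 47 and 95, and 48 and 96, with correlations of log2(CPM + 1) of 0.987, 0.987, 0.984 and 0.974. The members of a pair carried different index pairs. They held 1, 1, 1 and 2 of the 8 podocyte genes in both wells of each pair. None of wells 59, 75 and 87 was among them. The first 3 pairs cross the YFP1 and YFP2 libraries and the last lies within YFP2. Whether a pair is 1 cDNA, or a well more than 1 cell, was not tested.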
